A study of Mus musculus with 9 samples.

Results

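The gene set consisted of Oscar, which encodes the collagen receptor OSCAR, and 8 genes of the signaling chain that OSCAR uses in osteoclasts and myeloid cells: the adaptors Fcer1g and Tyrobp, the kinases Syk and Btk, the exchange factor Vav3, the phospholipases Plcg1 and Plcg2, and the transcription factor Nfatc1. These 9 genes were taken by symbol from the 55471 genes listed for each library. RNA was sequenced from 9 cultures of articular chondrocytes, the cells that build and maintain cartilage, which were isolated from the knee joints of wild-type mice at postnatal day 5. All plates were coated with COLpep, a collagen peptide that binds OSCAR, and no IL-1β was added. The Control group (3 cultures) received the adenovirus Ad-Control, the Ad-OSCAR group (3 cultures) received an adenovirus that makes cells express OSCAR, and the Ad-OSCAR + 5-ASA group (3 cultures) received the OSCAR virus and then 5-aminosalicylic acid (5-ASA), an anti-inflammatory drug. The sample labels give 3 days of culture, 400 MOI (infectious virus per cell) for 2 h and 36 h before the drug, whereas the methods of the study give 2 days, 800 MOI of Ad-OSCAR for 2 h and 10 µM 5-ASA for 24 h. The promoter that drives OSCAR and whether the cultures came from separate animals were not given in the sources used here, so the p-values measure only the spread between these cultures.

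OSCAR has a very short cytoplasmic tail and signals through a partner, the Fc receptor γ chain encoded by Fcer1g, whose tail carries an immunoreceptor tyrosine-based activation motif (ITAM). Tyrobp encodes DAP12, a second ITAM adaptor, which pairs with other receptors such as TREM2. When a receptor is engaged, Src-family kinases phosphorylate the ITAM, SYK docks on it and is activated, and SYK acts with TEC-family kinases, VAV exchange factors and scaffold proteins on phospholipase Cγ. The calcium signal that follows activates the phosphatase calcineurin, which sends NFAT proteins to the nucleus. In osteoclast precursors this chain induces Nfatc1, the main transcription factor of osteoclast formation. Chondrocytes are not a classical site of it.

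Because the receptor was supplied by a virus, the form of the Oscar transcript was examined first. GENCODE M21 places Oscar on the minus strand of GRCm38 at chr7:3609813-3616157 and gives it 3 protein-coding transcripts, which differ around the end of exon 1 and in exon 2, a coding exon of 33 bases at chr7:3615484-3615516. The stretches that tell them apart are printed in the sense direction, with lower case for the coding bases that all 3 share and capitals for those that are not in all of them.
Oscar-201: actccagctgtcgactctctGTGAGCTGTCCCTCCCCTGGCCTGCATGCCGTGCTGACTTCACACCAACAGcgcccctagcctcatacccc
Oscar-202: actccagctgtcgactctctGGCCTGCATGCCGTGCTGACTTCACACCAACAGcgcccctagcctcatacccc
Oscar-203: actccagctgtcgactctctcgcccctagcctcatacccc

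Oscar-201 carries 18 additional bases at the end of exon 1 and encodes 271 residues, Oscar-202 lacks those bases and encodes 265 residues, and Oscar-203 also skips exon 2 and encodes 254 residues. The deposited files give for each gene the transcript length averaged over the transcripts that the reads were assigned to. In the 6 libraries infected with Ad-OSCAR this length lay between 0.39 bases below and exactly at the 1829 bases of Oscar-202, and 4 of the 6 libraries were exactly at it, while Oscar-201 has 1823 bases and Oscar-203 has 1796. The reads were therefore assigned almost wholly to the form with exon 2 and without the additional exon 1 bases, in treated and untreated cultures. The sequence of the insert was not given in the sources used here. TPM, a level scaled by RSEM for transcript length and library size, counts the whole transcript of 1829 bases, and if the virus carried only the 795 coding bases the Oscar TPM below would be too low by a factor of up to 2.30.

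Oscar was at the detection limit in Control and among the most abundant transcripts after infection. Its estimated counts were 4, 3 and 4 in the Control cultures, 187278, 173445 and 179480 in the Ad-OSCAR cultures and 91718, 80766 and 94199 in the Ad-OSCAR + 5-ASA cultures. The TPM values were 0.19, 0.33 and 0.22 in Control, 6549, 7127 and 6779 in Ad-OSCAR, and 3345, 2806 and 3654 in Ad-OSCAR + 5-ASA. The 3 groups did not overlap, and the treated cultures lay between the others. Groups without overlap were frequent among all 15362 genes tested, at 69% in Ad-OSCAR against Control, 33.8% in the treated against the untreated Ad-OSCAR cultures and 66.6% in treated cultures against Control, by counts per library size. By mean TPM, Oscar ranked 11 among all genes in Ad-OSCAR and 24 in Ad-OSCAR + 5-ASA, and it took 0.664% to 0.741% and 0.294% to 0.371% of all counts. The fitted log2 fold change of Ad-OSCAR over Control was 15.21, a value that rests on 11 counts in the whole Control group and that checks the labels rather than testing a response.

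5-ASA-treated cultures held less Oscar mRNA. Relative to untreated Ad-OSCAR cultures, Oscar fell by 0.97 on the log2 scale (SE 0.065, adjusted p = 1.76e-08, edgeR quasi-likelihood test), so that 0.510 of the untreated level remained, with a 95% interval of the log2 change from -1.11 to -0.83. Viral and endogenous Oscar reads were not separated. In bulk samples, fewer infected cells and less Oscar RNA per infected cell cannot be told apart. Since every treated culture also had less Oscar, an action of the drug on a downstream gene and a lower dose of OSCAR cannot be told apart in any comparison below.

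**Figure D1:**
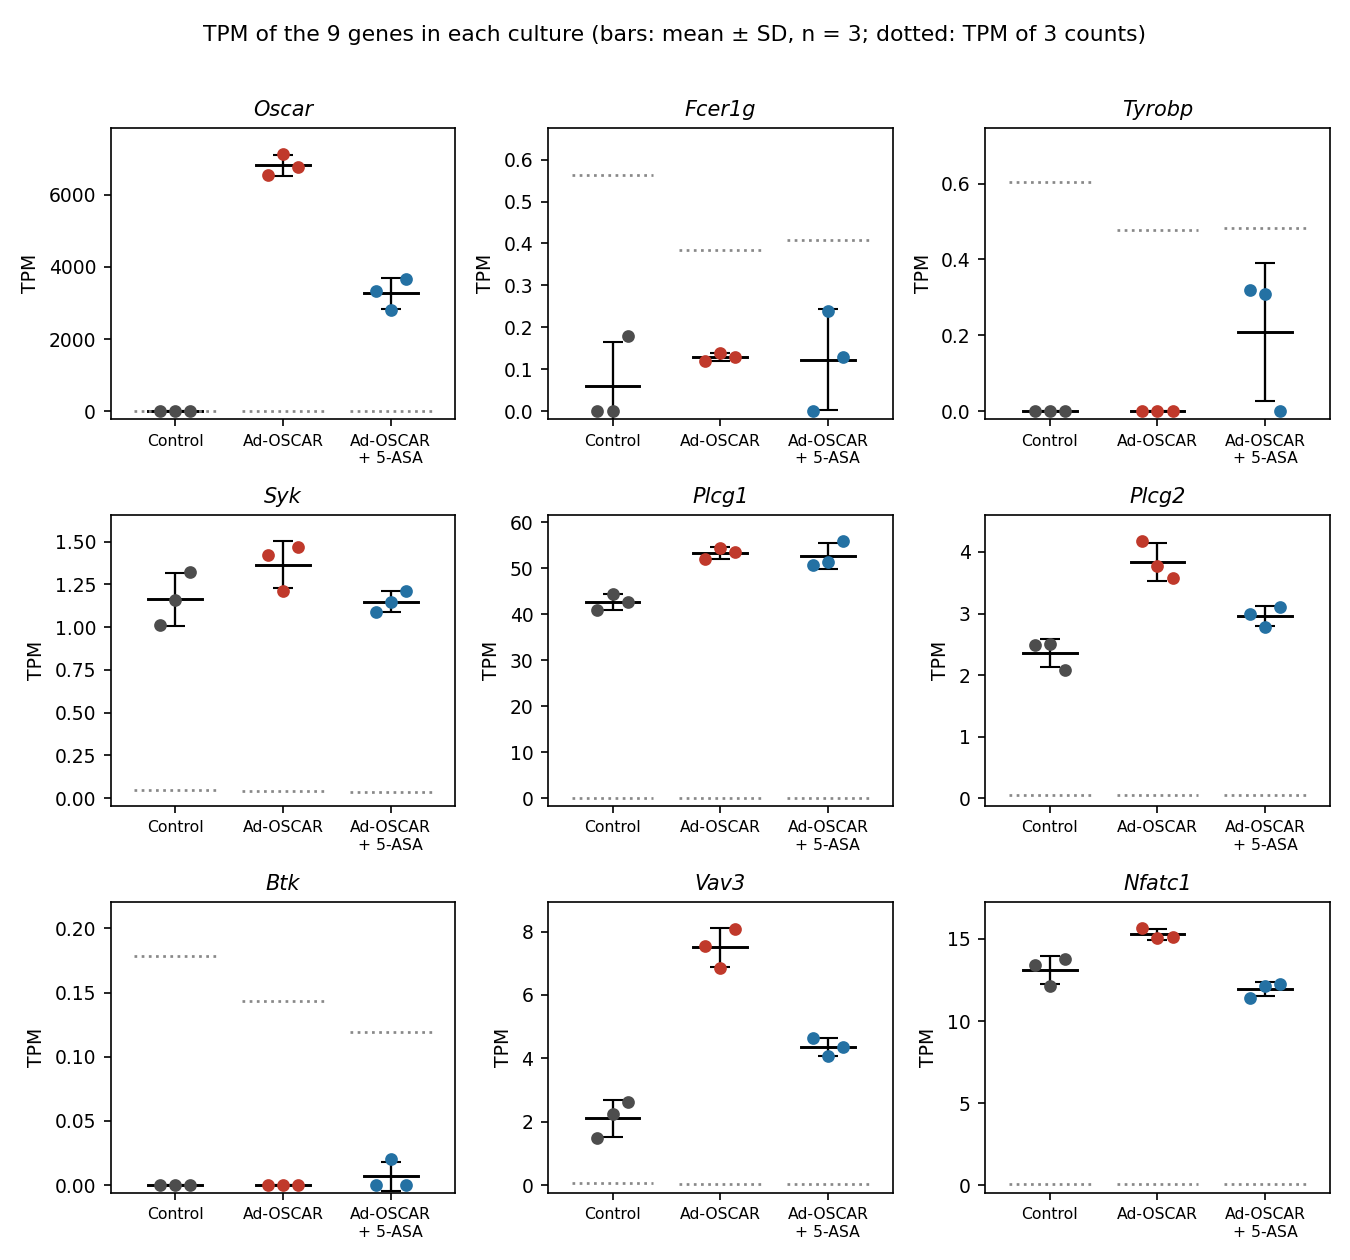
TPM (vertical axis, linear, separate scale per panel) of the 9 genes in the 3 Control (grey), 3 Ad-OSCAR (red) and 3 Ad-OSCAR + 5-ASA (blue) cultures, with 1 point per culture, black bars for the mean ± SD and a dotted line at the TPM that 3 counts would give. Fcer1g, Tyrobp and Btk lie below that line in every culture, whereas Oscar, Vav3 and Plcg2 separate all 3 groups.

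Of the 9 genes, 5 were expressed in Control chondrocytes, when expression was taken as at least 1 TPM in all 3 cultures: Syk, Plcg1, Plcg2, Vav3 and Nfatc1. In both infected groups Oscar joined them, giving 6. The remaining genes, Fcer1g, Tyrobp and Btk, were at or under 3 counts in every one of the 9 libraries, of 19733431 to 28192725 counts each, and were too low to be tested. Neither ITAM adaptor was thus above the detection limit of 3 counts.

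Fcer1g, the adaptor that OSCAR is known to need (chr1:171229572-171234365), had 0, 0 and 1 counts in Control, 1 in each Ad-OSCAR culture and 0, 2 and 1 in Ad-OSCAR + 5-ASA. These counts correspond to at most 0.24 TPM, under the 0.351 to 0.613 TPM that 3 counts would have given. No group was distinguishable from another at this depth. In Ad-OSCAR cultures Oscar had a TPM 53192 times that of Fcer1g, with an exact Poisson 95% interval from 18202 to 257935, and in Ad-OSCAR + 5-ASA cultures 23957 times, with an interval from 8198 to 116169. These intervals cover counting error only, of 3 pooled Fcer1g counts in each group. The adaptor mRNA therefore did not rise into the measurable range in cells with at least 6549 TPM of its receptor, and the level of the FcRγ protein was not measured here.

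Tyrobp, which encodes DAP12 (chr7:30413760-30417585), had no count in any Control or Ad-OSCAR culture and 2, 2 and 0 counts in Ad-OSCAR + 5-ASA. At a limit of 3 counts per library, Oscar TPM in the Ad-OSCAR cultures was at least 13732-fold higher than Tyrobp TPM. With 4 pooled counts in the treated group the ratio was 15252, with a 95% Poisson interval from 5957 to 55979. Hcst, which encodes the related adaptor DAP10, had no count in any library. Both Fcer1g and Tyrobp are short genes that do not overlap another annotated gene, so their low counts are not shared with a neighbour.

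Syk, the kinase that binds phosphorylated ITAMs, was expressed at a low level (chr13:52583173-52648792). Its TPM was 1.01, 1.16 and 1.32 in Control, 1.42, 1.21 and 1.47 in Ad-OSCAR, and 1.09, 1.15 and 1.21 in Ad-OSCAR + 5-ASA, from 64 to 108 counts per library. The groups overlapped. The log2 fold change was 0.16 in Ad-OSCAR against Control (95% interval -0.12 to 0.44, adjusted p = 0.298) and -0.09 in the treated against the untreated Ad-OSCAR cultures (-0.36 to 0.18, adjusted p = 0.688). A change of Syk mRNA within these intervals was not detectable at this depth. Zap70, the other kinase of this family and typical of T cells, had 3 to 9 counts per library.

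Btk, a TEC-family kinase that phosphorylates phospholipase Cγ (chrX:134542336-134583570), had a single count in 1 treated culture and none in the other 8 libraries. Its relative Bmx had 0 to 1 counts. Tec, the founding member of the family, was expressed, with mean TPM of 1.24 ± 0.092 in Control, 6.21 ± 0.72 in Ad-OSCAR and 4.45 ± 0.57 in Ad-OSCAR + 5-ASA (SD, n = 3). Its log2 fold change was 2.31 in Ad-OSCAR against Control (SE 0.13, adjusted p = 2.59e-11) and -0.43 with 5-ASA (SE 0.10, adjusted p = 0.00682), both by edgeR. The Tec gene overlaps an unconfirmed transcript model, Gm43499, on the same strand.

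Vav3 had the largest change of the 5 tested genes that the virus did not supply. VAV3 is an exchange factor for small GTPases that is needed for osteoclasts to spread and resorb bone (chr3:109340653-109685698). Its counts were 82, 136 and 79 in Control, 575, 428 and 518 in Ad-OSCAR, and 313, 331 and 317 in Ad-OSCAR + 5-ASA. In TPM this was 1.47, 2.23 and 2.62 in Control, 7.56, 6.86 and 8.09 in Ad-OSCAR, and 4.64, 4.06 and 4.37 in Ad-OSCAR + 5-ASA. The lowest Ad-OSCAR culture thus exceeded the highest treated culture, and the lowest treated culture exceeded the highest Control culture. By counts per library size, 69% of all genes tested did not overlap in Ad-OSCAR against Control. The share was 33.8% in treated against untreated Ad-OSCAR and 66.6% in treated cultures against Control.

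The edgeR log2 fold change of Vav3 was 2.02 in Ad-OSCAR against Control (SE 0.11, adjusted p = 7.59e-12), a 4.06-fold increase. With 5-ASA it fell by 0.61 on the log2 scale relative to untreated Ad-OSCAR cultures (SE 0.089, adjusted p = 8.69e-05), to 0.655 of the untreated level, and it remained above Control by 1.41 (adjusted p = 3.11e-09). Without Ad-OSCAR replicate 1 the 5-ASA change was -0.58, which still passed the adjusted test but was just short of the 1.5-fold change that the study required of 5-ASA genes. Its family members differed in level: Vav1, the form of blood cells, had no count in any library, whereas Vav2, the broadly expressed form, had mean TPM of 4.99 in Control, 7.32 in Ad-OSCAR and 5.83 in Ad-OSCAR + 5-ASA. Vav2 rose by 0.46 on the log2 scale in Ad-OSCAR (adjusted p = 0.000214), and Vav3 thereby passed from below Vav2 in Control to about the same TPM in Ad-OSCAR.

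Among all genes with a mean of at least 1 CPM (counts scaled to the library size), the 3 whose profile over the 9 libraries was closest to that of Vav3 were Hgf, which encodes hepatocyte growth factor, C130083M11Rik and the interferon-inducible gene Ifi203. Their root mean square differences from Vav3 were 0.0845, 0.111 and 0.131 on the log2 scale. For Oscar the closest gene, Mylk2, was 3.59 away. The measure compares unscaled profiles, and Oscar itself had a root mean square spread of 6.71 around its mean. The distance therefore follows the size of the supplied change and cannot show whether another gene shared the shape. With 9 libraries in 3 groups, such likeness mostly reflects the 3 group levels.

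Both phospholipases were expressed, at very different levels. Plcg1, the broadly expressed form (chr2:160731300-160775760), had TPM of 40.97, 44.49 and 42.66 in Control, 51.95, 54.37 and 53.52 in Ad-OSCAR, and 50.63, 51.45 and 55.93 in Ad-OSCAR + 5-ASA. Plcg2, the form of blood cells and osteoclasts (chr8:117498291-117635142), had 2.49, 2.50 and 2.09 TPM in Control, 4.18, 3.77 and 3.58 in Ad-OSCAR, and 2.99, 2.78 and 3.11 in Ad-OSCAR + 5-ASA. In TPM, every Ad-OSCAR culture lay above every Control culture for both genes. The treated cultures lay below every untreated Ad-OSCAR culture for Plcg2 and overlapped them in TPM for Plcg1. In CPM, treated and untreated Ad-OSCAR cultures did not overlap for Plcg1, at 121.44 to 132.41 against 113.01 to 121.37. By CPM, 69% of all genes did not overlap in Ad-OSCAR against Control, and 33.8% in treated against untreated Ad-OSCAR.

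Plcg1 rose by 0.26 on the log2 scale in Ad-OSCAR against Control (SE 0.049, adjusted p = 0.000142). With 5-ASA its difference from untreated Ad-OSCAR was 0.11 (95% interval 0.0057 to 0.21, adjusted p = 0.142). Plcg2 rose by 0.67 in Ad-OSCAR (SE 0.10, adjusted p = 1.56e-05), a 1.59-fold increase. Its 5-ASA difference of -0.28 (95% interval -0.48 to -0.08) was at the threshold with an adjusted p of 0.0503, which ranged from 0.0358 to 0.206 over 17 alternatives. It passed under 4 of the 17: with at least 10 counts in every library (0.0417), with only the groups compared in the fit (0.0464), without Control replicate 3 (0.0441) and without Ad-OSCAR replicate 3 (0.0358). The Plcg1 locus overlaps Zhx3 on the other strand, which had 524 to 729 counts, and the antisense gene Gm27206 with 1 to 6 counts, and the strand setting of the counting was not given in the sources used here.

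Nfatc1, which encodes the transcription factor at the end of the chain, was expressed in Control already (chr18:80606205-80713071). Its TPM was 13.42, 12.16 and 13.79 in Control, 15.68, 15.06 and 15.12 in Ad-OSCAR, and 11.43, 12.13 and 12.25 in Ad-OSCAR + 5-ASA. All 3 Ad-OSCAR cultures were above all other cultures, and treated and Control cultures overlapped. Among all genes tested, 69% did not overlap in Ad-OSCAR against Control and 33.8% in treated against untreated Ad-OSCAR, by CPM. The log2 fold change was 0.18 in Ad-OSCAR against Control (SE 0.056, adjusted p = 0.0095), a 1.13-fold difference that was lost without Control replicate 2 (0.12, adjusted p = 0.0869). With 5-ASA, Nfatc1 fell by 0.28 relative to untreated Ad-OSCAR (SE 0.055, adjusted p = 0.00169), and the treated cultures differed from Control by -0.10 (95% interval -0.22 to 0.02, adjusted p = 0.147). Without Control replicate 2 this last difference was -0.16 and passed the test (adjusted p = 0.0243).

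The average transcript length of Nfatc1 also differed between the groups, from 4524 to 4556 bases in Control, 4489 to 4497 bases in Ad-OSCAR and 4377 to 4486 bases in Ad-OSCAR + 5-ASA. These ranges did not overlap, as was the case for 17.5% (Ad-OSCAR against Control), 11.3% (treated against untreated Ad-OSCAR) and 18.8% (treated against Control) of 10569 expressed genes whose length varied. Short reads assign the 7 annotated transcripts with uncertainty, and no single form was tested. Of the other NFAT genes, Nfatc2 had 1 to 7 counts per library. Nfatc3 had mean TPM of 27.9, 26.6 and 23.2 in Control, Ad-OSCAR and Ad-OSCAR + 5-ASA, and Nfat5, which responds to osmotic stress rather than calcium, had 51.5, 41.1 and 41.5. Nfatc4 had 14.9, 27.6 and 30.3. Nfatc4 was the NFAT gene with the highest rise in Ad-OSCAR, with a log2 fold change of 0.97 (adjusted p = 1.29e-10), while Nfat5 fell by 0.25 (adjusted p = 0.000653).

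**Figure D2:**
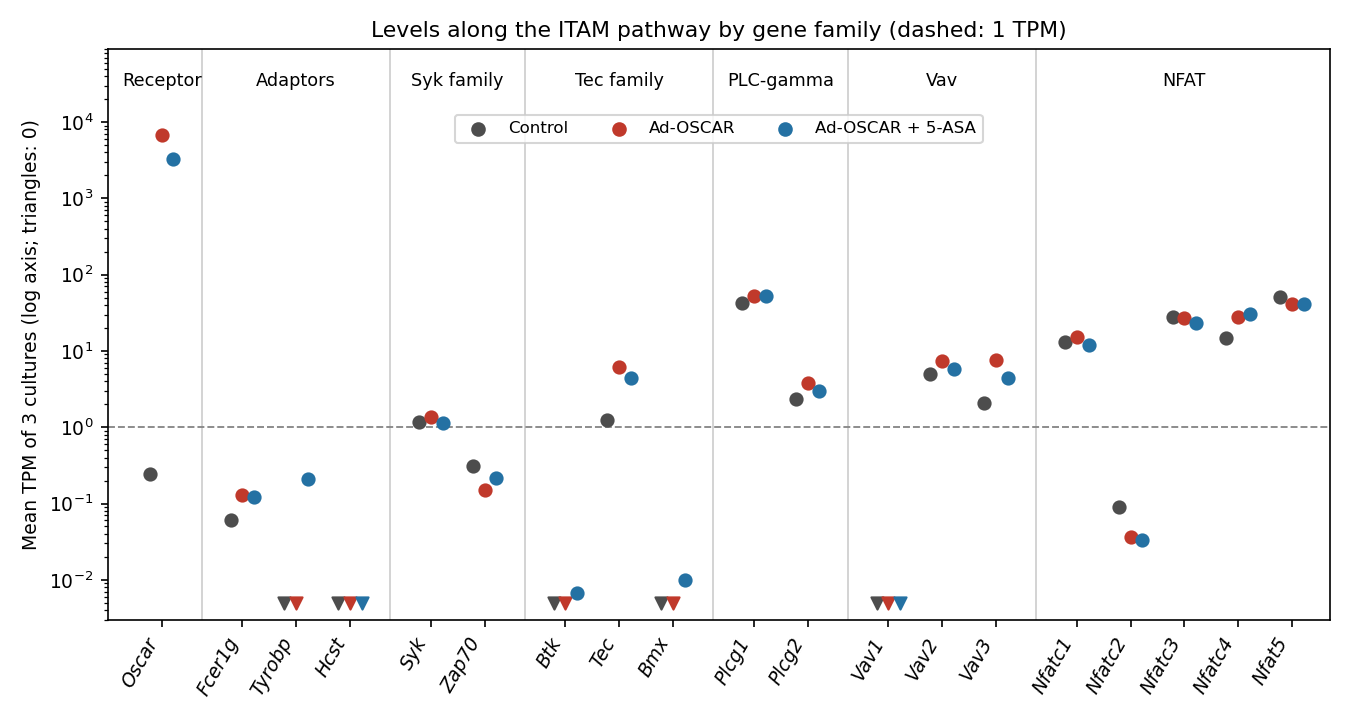
Mean TPM of 3 cultures (vertical axis, logarithmic, with triangles for 0) of the gene set and its paralogs, ordered from receptor to transcription factor, in Control (grey), Ad-OSCAR (red) and Ad-OSCAR + 5-ASA (blue), with a dashed line at 1 TPM. The adaptors and the blood cell forms Zap70, Btk, Bmx, Vav1 and Nfatc2 lie under the line, whereas Syk, Tec, Plcg1, Plcg2, Vav2, Vav3 and the other NFAT genes lie above it.

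Counted over the 6 genes that could be tested, 5 were higher in Ad-OSCAR than in Control at an adjusted p below 0.05, all but Syk and including the supplied Oscar. Of all 15362 genes tested, 65% passed that test, with 32.7% higher and 32.2% lower, so a pass in this comparison was common among all genes. By the criteria of the study, an absolute log2 fold change over 1.5 with an adjusted p below 0.05, Oscar and Vav3 passed, against 9.96% of all genes. In the 5-ASA comparison against untreated Ad-OSCAR, 3 of the 6 (Oscar, Vav3 and Nfatc1) were lower, where 17.8% of all genes passed, with 10.4% higher and 7.38% lower. The criteria of the study for 5-ASA, a fold change over 1.5 with an unadjusted p below 0.05, were met by Oscar and Vav3, against 4.15% of all genes. In treated cultures against Control, 4 of the 6 (Oscar, Plcg1, Plcg2 and Vav3) were higher, where 63.2% of all genes passed, with 31.4% higher and 31.8% lower. Oscar and Vav3 also met the 5-ASA criteria of the study there, against 29.9% of all genes. The 3 comparisons share libraries and are not independent of each other.

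**Figure D3:**
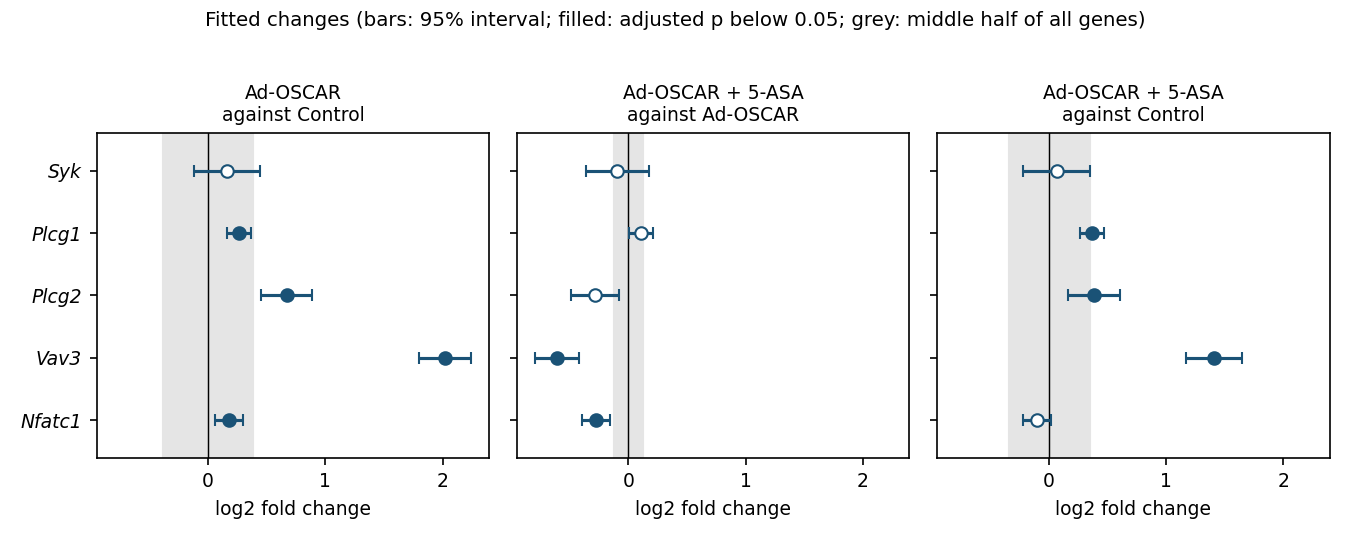
Fitted log2 fold changes (horizontal axis) of the 5 tested genes other than Oscar in the 3 comparisons, with 95% intervals, filled points for an adjusted p below 0.05 and a grey band for the middle 50% of all 15362 genes. Vav3 lies outside the band in all 3 panels, whereas Syk, Plcg1 and Nfatc1 lie within it in the first.

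Other ITAM receptors were mostly at the detection limit. Of 24 further ITAM receptors and adaptors, 20 in each group were at or under 3 counts in all 3 libraries, and 3 had enough counts to be tested. Of these 3, Trem2 and Clec4e were higher in Ad-OSCAR, where 32.7% of all genes were. Trem2, a lipid receptor that pairs with DAP12, had 11 to 12 counts in Control, 38 to 45 in Ad-OSCAR and 33 to 41 in Ad-OSCAR + 5-ASA, a log2 fold change of 1.52 in Ad-OSCAR (SE 0.26, adjusted p = 4.59e-05). With 5-ASA none of the 3 passed edgeR's test, and none had an unadjusted p below 0.05 either. In Ad-OSCAR, Trem2 therefore reached 2.73 TPM on average in cells without a count of its adaptor.

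The proximal signaling layer, by contrast, was well represented. Of 27 further kinases, scaffolds and exchange factors, 21 could be tested, of which 15 were higher and 2 lower in Ad-OSCAR, where 32.7% and 32.2% of all genes were, with a median log2 fold change of 0.38 against 0.02 over all genes. Blnk, a scaffold of the SYK pathway whose mean stayed under 1 CPM, had 0 to 1 counts in Control, 20 to 30 in Ad-OSCAR and 22 to 26 in Ad-OSCAR + 5-ASA. Among genes with a mean of at least 1 CPM, the largest rises were those of Tec, described above, and of Gab2, a docking protein that links receptors to PI3-kinase and is needed in osteoclasts, with mean TPM of 1.07 in Control, 3.83 in Ad-OSCAR and 3.17 in Ad-OSCAR + 5-ASA (log2 fold change 1.95, adjusted p = 6.63e-11). With 5-ASA, 2 of the 21 were higher and 1 lower, where 10.4% and 7.38% of all genes were, with a median of -0.01. The counts of 2 lower in Ad-OSCAR and of 2 higher with 5-ASA each became 1 without any 1 of 6 of the 9 libraries. Over all fits without 1 library, the 5-ASA counts ranged from 1 to 3 higher and from 1 to 2 lower.

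Of 24 genes of phospholipase, calcium and NFAT signaling outside the gene set, 22 could be tested, of which 6 were higher and 9 lower in Ad-OSCAR, where 32.7% and 32.2% of all genes were, with a median of -0.02. Rcan1, a calcineurin regulator that NFAT itself induces, had mean TPM of 54.9 in Control, 170 in Ad-OSCAR and 135 in Ad-OSCAR + 5-ASA, a log2 fold change of 1.60 (SE 0.049, adjusted p = 2.91e-15). Orai2, a subunit of store-operated calcium channels, rose by 1.59 (adjusted p = 4.07e-14), from 17.7 to 49.4 TPM. Rasgrp3, a diacylglycerol-dependent activator of RAS, fell by 1.79 on the log2 scale (adjusted p = 1.69e-09).

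With 5-ASA, 7 of the 22 genes were higher and 3 lower, where 10.4% and 7.38% of all genes were, with a median of 0.11. Orai2 was lower by a log2 fold change of -0.37 (adjusted p = 7.7e-05) and Rcan1 by -0.24 (adjusted p = 0.00116). Rcan2, a second calcineurin regulator, had the largest 5-ASA change of the list, a rise of 0.50 (adjusted p = 3.95e-05). It had fallen by 1.18 on the log2 scale in Ad-OSCAR against Control (adjusted p = 1.85e-11), with mean TPM of 41.5 in Control, 17.5 in Ad-OSCAR and 22.4 in Ad-OSCAR + 5-ASA. Nfatc4 was higher by 0.19 (adjusted p = 0.0234), a call that was lost without Ad-OSCAR replicate 3 (adjusted p = 0.126), without Ad-OSCAR + 5-ASA replicate 1 (0.112) or without Ad-OSCAR + 5-ASA replicate 3 (0.0585). The Rcan1 locus overlaps an antisense gene, Gm46555.

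Negative regulators were examined because ITAM signals are opposed by receptors with inhibitory motifs (ITIMs) and by phosphatases. Of 20 such genes, 13 could be tested, of which 6 were higher and 2 lower in Ad-OSCAR, where 32.7% and 32.2% of all genes were, with a median of 0.21. Lilrb4a, an inhibitory receptor of myeloid cells, had 1 to 4 counts in Control, 185 to 238 in Ad-OSCAR and 73 to 97 in Ad-OSCAR + 5-ASA, and with 5-ASA it fell by 1.20 on the log2 scale (SE 0.16, adjusted p = 3.14e-05). It overlaps the protein-coding gene Gm49339 on the same strand, and the split of reads between them is uncertain. Pag1, an adaptor that recruits the inhibitory kinase CSK, fell by 1.80 in Ad-OSCAR (adjusted p = 4.11e-12). Cd72, an inhibitory receptor of B cells that lies opposite Tesk1, was lower with 5-ASA by a log2 fold change of -1.48 (adjusted p = 0.00308), from 37 to 69 counts to 15 to 22 counts. The change of Cd72 ranged from -1.73 to -0.75 over 17 alternatives and passed in all 17.

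**Figure D4:**
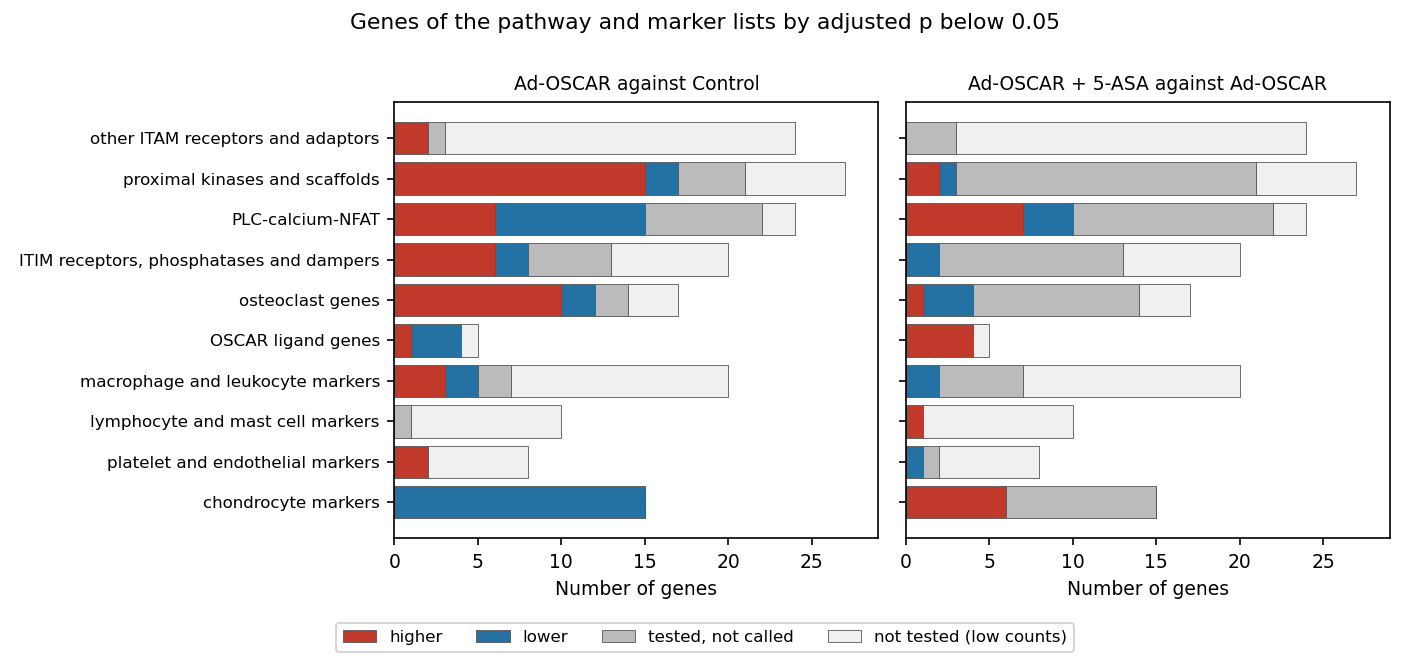
Number of genes (horizontal axis) in each list of pathway and marker genes that were higher (red), lower (blue), tested without a call (grey) or not tested for low counts (pale) in Ad-OSCAR against Control (left) and Ad-OSCAR + 5-ASA against Ad-OSCAR (right), at an adjusted p below 0.05. Most further ITAM receptors were not tested, whereas 15 of the 27 proximal genes were higher in Ad-OSCAR and all 15 chondrocyte markers were lower. Of all genes tested, 32.7% were higher and 32.2% lower in Ad-OSCAR.

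In osteoclasts the chain ends in a set of NFATc1-dependent genes. The list counted here holds osteoclast genes in general, Csf1r, Traf6 and Fos among them, and is not a list of NFATc1 targets. Of 17 osteoclast genes, 14 could be tested, of which 10 were higher and 2 lower in Ad-OSCAR, where 32.7% and 32.2% of all genes were, with a median of 0.73 against 0.02 over all genes. Atp6v0d2, a proton pump subunit, rose from 0 to 1 counts in Control to 40 to 54 counts in Ad-OSCAR, and Prdm1, a repressor that lifts the brakes on osteoclast genes, from 0 to 1 to 34 to 54 counts. Mmp9, a matrix metalloproteinase, rose by 2.82 on the log2 scale (adjusted p = 2.19e-11) and was higher still with 5-ASA, by 0.61 (adjusted p = 0.000404). Acp5, which encodes the osteoclast phosphatase TRAP, was instead 1 of the 2 lower genes, and Dcstamp, a defining gene of osteoclast fusion, had no count in any library. With 5-ASA, 3 of the 14 were lower and 1, Mmp9, was higher, where 7.38% of all genes were lower and 10.4% higher. Only 1 was lower without Ad-OSCAR replicate 1, without Ad-OSCAR replicate 2 or without Ad-OSCAR + 5-ASA replicate 2.

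The collagens that OSCAR binds were measured as possible ligands made by the cells themselves. Of 5 ligand genes, 4 could be tested, of which 3 were lower and 1, Col3a1, higher in Ad-OSCAR, where 32.2% and 32.7% of all genes were. Col2a1, the main collagen of cartilage, fell by 3.97 on the log2 scale (adjusted p = 2.99e-18), and Col1a2 by 2.38 (adjusted p = 2.24e-17). With 5-ASA all 4 were higher than in untreated Ad-OSCAR, as were 10.4% of all genes. Col1a2 led with a log2 fold change of 0.60 (adjusted p = 1.51e-07). Col2a1 rose by 0.28 (adjusted p = 0.00477), a call that limma on log2(TPM + 0.5) did not make (0.18, adjusted p = 0.18). Cells that gained the receptor thus held less mRNA of its type II collagen ligand, while the coated peptide was present in all cultures.

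Since most of these genes are known from blood cells, markers of other cell types were counted. Of 20 macrophage and leukocyte markers, 7 could be tested, and 3 were higher and 2 lower in Ad-OSCAR, where 32.7% and 32.2% of all genes were. The summed TPM of this list was 24.5 to 28.0 in Control, 50.4 to 52.7 in Ad-OSCAR and 39.8 to 42.5 in Ad-OSCAR + 5-ASA, so the sum moved in the same order as Vav3. The largest part of this sum was Cd14, a lipopolysaccharide co-receptor, with mean TPM of 13.0, 28.0 and 21.6 in the 3 groups. Cd14 rose by 1.07 on the log2 scale in Ad-OSCAR (adjusted p = 1.89e-10) and fell by 0.29 with 5-ASA (adjusted p = 0.00383). Other markers of the list were at or near 0: Ptprc (CD45) had 0 to 2 counts per library, Itgam 0 to 2, Adgre1 0 to 3, and C1qa, C1qb, C1qc, Cd163 and Cd53 none. Csf1r had 12 to 29 counts. Cd68, a lysosomal protein that is not restricted to macrophages, rose from a mean of 3.46 to 13.5 TPM in Ad-OSCAR and had 9.76 TPM with 5-ASA. Lyz2 had 5.20, 7.10 and 6.43 TPM, and Laptm5 fell by 1.75 on the log2 scale in Ad-OSCAR (adjusted p = 1.25e-05).

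Of the 10 lymphocyte and mast cell markers, 1 could be tested, Kit. With 5-ASA Kit was higher, as were 10.4% of all genes, by a log2 fold change of 0.91 (adjusted p = 0.0026). This change ranged from 0.46 to 1.00 over 17 alternatives and passed in all 17. Of 8 platelet and endothelial markers, 2 could be tested and both were higher in Ad-OSCAR, where 32.7% of all genes were. They included the angiopoietin receptor gene Tek (log2 fold change 1.88, adjusted p = 3.2e-06). With 5-ASA Tek was lower by a log2 fold change of -0.69 (adjusted p = 0.0298, edgeR), a call that held under 9 of 16 alternatives. The part of other cells in the changes of Vav3, Plcg2 and Tec was not tested further.

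The cells carried the markers of chondrocytes in Control, and these markers were lower in Ad-OSCAR. All 15 chondrocyte markers could be tested and all 15 were lower in Ad-OSCAR, where 32.2% of all genes were, with a median log2 fold change of -4.71. Their summed TPM was 17021 to 19344 in Control, 1074 to 1232 in Ad-OSCAR and 1246 to 1448 in Ad-OSCAR + 5-ASA. 2 cartilage matrix genes were among them: Ucma fell by 8.21 and Matn3 fell by 7.47 on the log2 scale. With 5-ASA, 6 of the 15 were higher and 0 lower than in untreated Ad-OSCAR, where 10.4% and 7.38% of all genes were, with a median of 0.12. The changes of the signaling genes between Control and Ad-OSCAR therefore stood beside a loss of most chondrocyte marker mRNA, and the part of that loss in them was not tested.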

How the data were processed

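Messenger RNA of 9 chondrocyte cultures in 3 groups was sequenced as stranded libraries of 100-base read pairs. After trimming with BBDuk, the authors aligned reads to GRCm38 with STAR 2.7.1a and counted them with RSEM 1.3.1, versions that the submitters' processing notes also give. The authors deposited estimated counts per gene, which need not be whole and are not scaled, and TPM, which RSEM scales by transcript length and library. The reporting summary of the study names another RSEM version for the TPM, and the strand setting was not given in the sources used here.

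Estimated counts were rounded (8.97% to 10.1% of genes were not whole before), and the 9 libraries then summed to 19733431 to 28192725 counts. A limit of 3 counts per library served as the detection limit, which covers counting error only. Symbols came from a table of gene names (55144 of 55471 identifiers matched) and coordinates, overlaps and transcript sequences from GENCODE M21 (55230 matched). Tests used edgeR 4.0.16 in R 4.3.3 (TMM, filterByExpr, quasi-likelihood F test, all 9 libraries in one fit, group as the only factor, Benjamini-Hochberg over 15362 genes), with a common biological coefficient of variation of 5.11%. The SE was computed as log2 fold change over the square root of F, and an adjusted p below 0.05 was taken as a call. Between replicates of a group, counts differed by more than sampling noise (chi-square per degree of freedom from 4.03 to 7.52).

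The study used DESeq2 and its own criteria, an absolute log2 fold change over 1.5 with an adjusted p below 0.05 for OSCAR, and a fold change over 1.5 with an unadjusted p below 0.05 for 5-ASA. For 5-ASA its text names Ad-Control as the reference, and treated cultures were compared here with Ad-Control and with untreated Ad-OSCAR. Beside the 9 genes, the text names up to 2 genes of each list in each direction and comparison, those with the largest change past these criteria and a mean of at least 1 CPM, and the paralogs and 6 leukocyte markers in any case, apart from a few items that are not reported here. Clec4e, Col3a1, Acp5, Dcstamp, Blnk, Rcan2, Cd14 and the markers without counts were named after their values were seen. The gene set and all lists were chosen with earlier results of these data known. Alternatives were DESeq2 1.42.0, RLE normalization, no filter and a filter of 10 counts in every library, a block on replicate number, a fit of just the groups compared, Oscar left out of library sizes, limma 3.58.1 on log2(TPM + 0.5) and each library left out in turn. Python 3.11.15, numpy 2.4.6, pandas 2.3.3, scipy 1.17.1 and matplotlib 3.10.9 were used for tables and figures.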

Additional observations from a re-analysis of the deposited data

How the results depend on the processing

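The 5 genes expressed in Control were the same 5 under each of 6 alternatives. The number of the 6 tested genes called ranged, without any 1 library, from 4 to 5 in Ad-OSCAR against Control, from 3 to 4 with 5-ASA and from 4 to 5 in treated cultures against Control. The number past the study's criteria was 1 in place of 2 in all 3 comparisons with at least 10 counts in every library, a filter that leaves out Oscar for its low Control counts, so that Oscar has no value under it. Without any 1 library this number ranged from 1 to 2 in the 5-ASA comparison. The 5-ASA change of Oscar ranged from -1.04 to -0.88 without any 1 library and from -1.07 to -0.88 over 16 alternatives.

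Fitting replicate number as a block (replicate block) gave 5 and 3 genes called in the first 2 comparisons and -0.98 for Oscar with 5-ASA, and changed no call of the gene set. Cultures with the same number did not deviate together (mean correlation -0.021 over 9 pairs), so the numbers were not taken as pairs.

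On log2(TPM + 0.5) with limma, which had no call for them, the 5-ASA change of Plcg1 turned to -0.018 and the Syk change of treated cultures against Control to -0.0081, and Plcg2 in treated cultures against Control had an adjusted p of 0.0581. The same fit called 2 rather than 7 genes higher with 5-ASA in the calcium list, 1 rather than 4 ligand genes and 3 rather than 6 chondrocyte markers. With at least 10 counts in every library, 3 rather than 6 negative regulators were higher in Ad-OSCAR. Of 1020 list counts under alternatives, 58 moved by over 1.5 times, and 48 of these had a main count under 3. Over all genes, the number past the study's criteria for 5-ASA was 637, against 1012 with no filter, 402 with at least 10 counts and 398 by limma on TPM, and that for OSCAR was 1530, against 905 and 894 in the last 2. The cause of these differences was not tested. At this depth, differences among Fcer1g, Tyrobp and Btk under 3 counts per library cannot be shown.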
